A study of Brassica napus with 12 samples.

Results

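FLOWERING LOCUS C (FLC) and its MADS-box relatives of the MADS AFFECTING FLOWERING (MAF) group were described in apical meristems of rapeseed (Brassica napus). Members were all genes of the deposited count table whose best protein match was FLC, AGL27, AGL31 or one of MAF1 to MAF5 of a mustard-family species. This rule found 19 of 100919 genes: 10 matched FLC, 6 matched AGL31 (also called MAF2), 2 matched AGL27 (also called FLM or MAF1) and 1 matched MAF5. A best match names the closest characterized protein and need not be the exact Arabidopsis counterpart.

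The meristems came from plants grown without treatment at an experimental station and were taken as the inflorescence primordium passed to the first floral primordia. The groups were the line ZS11, labelled wild type, SX3, a line given as a natural mutant, and second-backcross plants between them in 2 classes, with 3 libraries each. Zlike carries the genotype label wild type and Slike the label mutant, and each class is named for the parental plant type it resembles. The labels give no plant age, and do not say whether a library was 1 plant or a pool. Parents and backcross classes differ in the share of the SX3 genome they carry, so SX3 against ZS11 compares whole genomes, and Slike against Zlike compares backcross plants sorted by type.

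In Arabidopsis, FLC is a transcription factor that binds the floral integrator genes FT and SOC1 together with its partner SVP and holds flowering back. FRIGIDA and active chromatin keep FLC on, the autonomous pathway lowers it, and prolonged cold silences it through VIN3-type proteins and Polycomb complexes. AGL27 and AGL31 are relatives that also delay flowering, AGL27 mainly in response to ambient temperature and AGL31 by limiting the reaction to short cold. Rapeseed carries A and C subgenomes from its 2 ancestors and has several copies of FLC, of which the A02 and A10 copies are known from studies of vernalization requirement.

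Total counts lay between 13445924 and 17778731 per library. Libraries of a group correlated at r of 0.987 to 0.991 across genes, and libraries of different groups at 0.784 to 0.962; genes are not independent replicates. The meristem genes STM, KNAT1, KNAT2 and CLV1 were present in every group but did not move together. Summed STM was at 265 to 274 CPM (counts scaled to library size by the TMM method) in ZS11. It was at 146 to 149 CPM in SX3, 141 to 147 in Zlike and 116 to 123 in Slike. KNAT2 was also lower in SX3, at 39.1 to 41.1 CPM against 83.0 to 86.0 in ZS11. It was at 52.1 to 53.6 CPM in Zlike and 40.6 to 42.6 in Slike. KNAT1 was higher in SX3, at 127 to 134 CPM against 88.6 to 91.2 in ZS11. In the backcross KNAT1 was below ZS11, at 73.6 to 75.6 CPM in Zlike and 64.5 to 68.6 in Slike. CLV1 changed less, with 77.1 to 79.7 CPM in ZS11 and 71.1 to 78.1 in SX3. It was at 74.5 to 75.8 CPM in Zlike and 63.4 to 66.5 in Slike. The defining stem-cell genes CLV3 and WUS were low, between 0.51 and 3.36 CPM. Summed over 35 copies of 7 floral organ genes, levels were 22.2 to 23.3 CPM in ZS11, 108 to 118 in Zlike, 215 to 218 in SX3 and 438 to 446 in Slike. Summed over 29 copies of 6 photosynthesis genes, levels were 3976 to 4016 CPM in ZS11 and lower in the other groups, with RBCS-1A at or near 0 throughout. The anther and tapetum genes did not move together. AMS was at 0 in ZS11 and SX3 and at 11.3 ± 0.398 CPM (SD, n = 3) in Slike. DYT1 was at 0.176 ± 0.252 CPM in ZS11 and 11.4 ± 0.452 in Slike. MS1 was at 0 in every group. EMS1 was at 153 ± 1.52 CPM in ZS11, 116 ± 3.01 in SX3, 148 ± 3.86 in Zlike and 148 ± 4.79 in Slike. These tissue markers move with the groups compared below, and their part in the FLC results was not tested. In bulk tissue, fewer cells of a type and less RNA per cell cannot be told apart.

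In all, 11 copies, 7 of FLC and 4 of AGL31, had enough counts to be tested in every comparison. The other 8 copies were near silence and are described after them. The tested FLC copies lay on A02 (BnaA02G0035100ZS, 2018429 to 2021687, minus strand), on A03 (BnaA03G0039200ZS, 1803374 to 1806468, minus strand, and BnaA03G0144400ZS, 7353724 to 7358603, plus strand), on A10 (BnaA10G0244800ZS, 23943635 to 23947956, plus strand), on C02 (BnaC02G0039100ZS, 2477169 to 2480434, minus strand), on C03 (BnaC03G0046300ZS, 2360641 to 2363162, minus strand) and on C09 (BnaC09G0556700ZS, 64369416 to 64373425, plus strand). The tested AGL31 copies were a pair on A06 (BnaA06G0300200ZS, 39274604 to 39278625, and BnaA06G0300300ZS, 39282837 to 39286438) and a pair on C02 (BnaC02G0545600ZS, 64297020 to 64308215, and BnaC02G0546100ZS, 64355915 to 64359701), all on the plus strand. Coordinates are those of the deposited table. Its gene models give coding lengths between 495 and 672 bases for these 11 copies. Where a chromosome holds 2 tested copies, they are called the first and the second in the order of their coordinates.

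Neighbouring genes tie several copies to counterparts in the other subgenome. The A02 and C02 copies of FLC were each followed by a gene matching UFC (UPSTREAM OF FLC), a gene that stands beside FLC in Arabidopsis too. The first A03 copy and the tested C03 copy each lay between a gene matching EIL4 and one matching fabZ. The second A03 copy and an untested FLC copy on C03 were both followed by a gene matching the protein phosphatase At2g30020. The A10 copy and the tested C09 copy were each followed by a gene matching DFC (DOWNSTREAM OF FLC). A gene matching DFC also followed an untested C09 copy (BnaC09G0557000ZS) and stood before the A02 copy. DFC alone therefore does not single out which C09 copy is the counterpart of A10. The A06 pair of AGL31 and an untested AGL31 copy on C03 each had a gene matching BHLH69 beside them. The C02 pair of AGL31 lay far from FLC on that chromosome.

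Levels in the wild-type line were ordered first. Per kilobase of coding length, the A02 copy of FLC was the highest of the 19 in ZS11, at 66.4 ± 0.513 RPKM (TMM-scaled CPM per kilobase, SD, n = 3). The first A06 copy of AGL31 followed at 45.9 ± 0.355 RPKM and the A10 copy of FLC at 35.2 ± 2.26 RPKM, and neither overlapped its neighbours in this order. The first A03 copy of FLC at 31.4 ± 1.24, the second A06 copy of AGL31 at 30.5 ± 1.63 and the C03 copy of FLC at 27.5 ± 2.25 RPKM overlapped from one to the next. Below them stood the C02 copy of FLC at 22.8 ± 2.26 RPKM, the C02 copies of AGL31 at 17.8 ± 0.798 and 16.6 ± 0.723, and the second A03 and the C09 copies of FLC at 10.2 ± 0.74 and 9.71 ± 1.83. The C02 pair overlapped each other, as did the last pair.

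In SX3 the order was different. The A06 copies of AGL31 led at 35.2 ± 2.29 and 30.5 ± 1.48 RPKM. FLC on A10 was then the highest FLC copy, at 23.7 ± 2.95 RPKM, and overlapped the second C02 copy of AGL31 at 21.0 ± 2.85. FLC on A02 had moved from the first place to the ninth, at 5.68 ± 0.804 RPKM, and FLC on C02 was at 0. In Zlike and Slike the A02 copy of FLC was again first, at 54.0 ± 4.86 and 45.7 ± 1.45 RPKM, and did not overlap the next copy. Copies on paired chromosomes were not equal: in ZS11, A02 stood above C02 and A10 above C09 with no overlap of libraries.

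**Figure D1:**
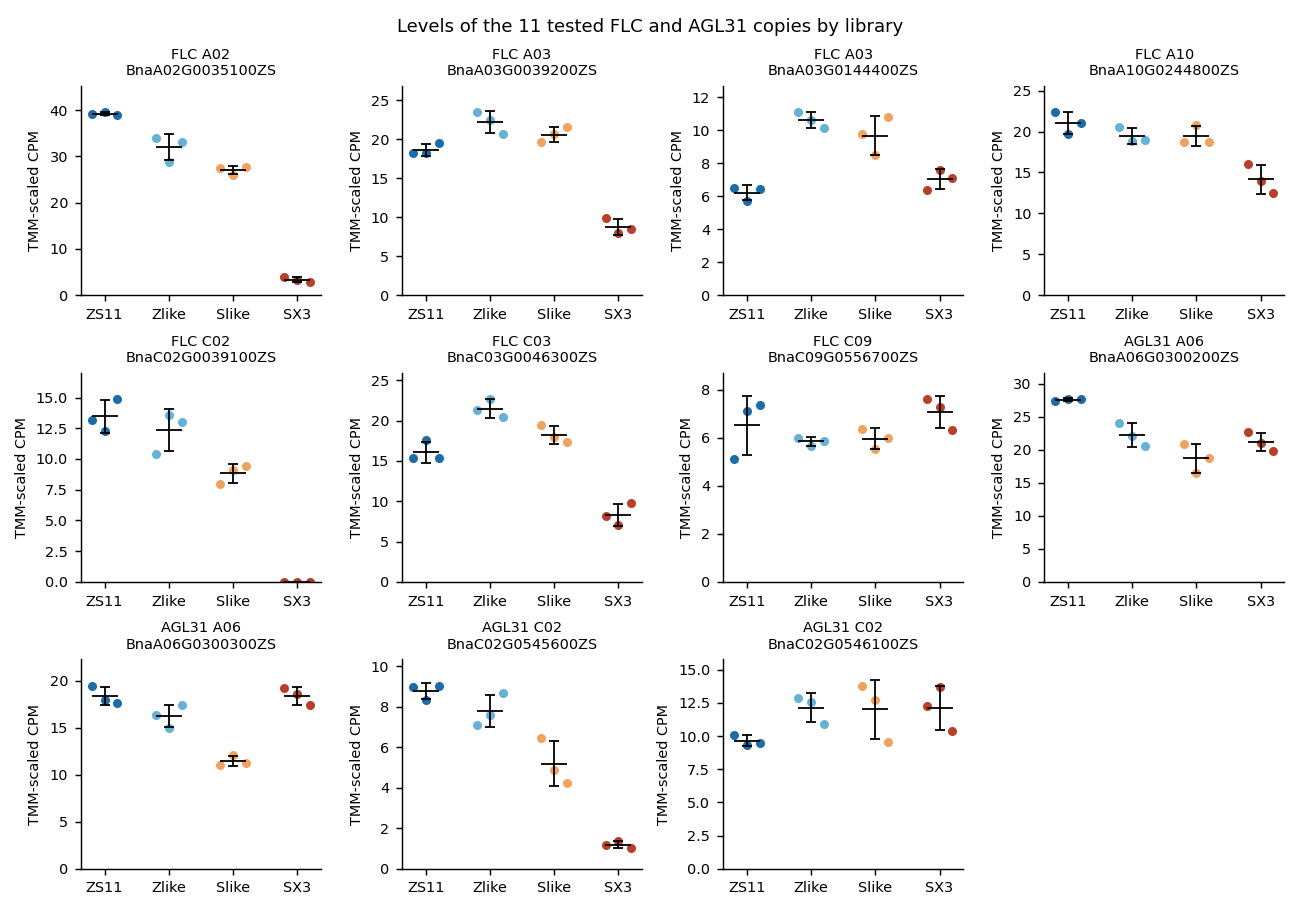
Levels of the 11 tested copies in each library (points; vertical axes in TMM-scaled CPM starting at 0), with mean and SD of the 3 libraries per group as black bars. FLC on A02 and C02 and the first C02 copy of AGL31 fall nearly to the axis in SX3, whereas FLC on C09 and the second C02 copy of AGL31 do not.

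The first comparison asked which of these repressors differ between the mutant line and the wild-type line. FLC was lower in SX3 at 5 of its 7 tested copies and higher at none. The fall ran from 1.5-fold on A10 to complete absence of counts on C02. AGL31 was mixed, with 2 copies lower, 1 higher and 1 that did not pass the test. Over the 11 tested copies, 7 were lower and 1 was higher at an adjusted p under 0.05 (edgeR's quasi-likelihood test, Benjamini-Hochberg adjustment over all 50035 genes tested). Across all genes tested, 35.9% were called lower and 33.4% higher, so a change in either direction was common between these lines. The median log2 fold change was -0.58 over the 11 copies and -0.01 over all genes. By DESeq2 the 11 copies also gave 7 lower and 1 higher.

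FLC on A02 had the clearest values. Its levels were 39.1, 39.6 and 39.0 CPM in the ZS11 libraries and 3.85, 3.32 and 2.90 CPM in the SX3 libraries. The groups stood far apart and varied little within themselves. The log2 fold change was -3.56 ± 0.10 (SE), an 11.8-fold lower level (adjusted p = 2.73e-68, edgeR). SX3 thus held 8.56% ± 1.21 (SD, n = 3) of the mean ZS11 level of this copy.

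FLC on C02 was not detected in SX3. The ZS11 libraries held 227, 190 and 211 counts, or 13.2, 12.3 and 14.9 CPM, and the SX3 libraries 0, 0 and 0 counts. A count of 0 allows up to 3 counts per library, so the level was at least 65.5-fold lower in SX3 (adjusted p = 1.84e-52, edgeR). In the same SX3 libraries the A02 copy, its counterpart by position, still received 52, 46 and 49 counts. Whether SX3 reads that differ from the genome used were lost at these copies was not tested.

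The copies on A03 and C03 that share neighbours fell by similar amounts. The first A03 copy lay at 18.2, 18.2 and 19.5 CPM in ZS11 and at 9.85, 7.94 and 8.41 CPM in SX3. The C03 copy lay at 15.3, 17.6 and 15.3 CPM in ZS11 and at 8.15, 7.08 and 9.78 CPM in SX3. Neither overlapped between the lines. The log2 fold changes were -1.10 ± 0.10 (adjusted p = 4.45e-20) and -0.93 ± 0.10 (adjusted p = 1.32e-14, edgeR).

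FLC on A10 fell least among the FLC copies that passed the test. It was at 22.4, 19.7 and 21.0 CPM in ZS11 and at 16.0, 13.9 and 12.5 CPM in SX3, again without overlap. The log2 fold change was -0.58 ± 0.09 (adjusted p = 1.02e-09, edgeR).

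The second A03 copy and the C09 copy overlapped between the lines. The second A03 copy was at 6.21 ± 0.451 CPM in ZS11 and 7.02 ± 0.612 CPM in SX3, and the 95% interval of its log2 difference ran from -0.09 to 0.44 (adjusted p = 0.234, edgeR). The C09 copy was at 6.53 ± 1.23 and 7.09 ± 0.669 CPM, with an interval from -0.15 to 0.39 (adjusted p = 0.424). A change of the size seen on A10 lies outside both intervals.

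AGL31 on C02 split within one region. The first C02 copy was at 9.00, 8.34 and 9.05 CPM in ZS11 and at 1.18, 1.37 and 1.01 CPM in SX3, a log2 fold change of -2.89 ± 0.19 (7.43-fold lower, adjusted p = 1.9e-30, edgeR). The second copy, whose gene model starts after the end of the first on the same strand, was at 10.1, 9.31 and 9.48 CPM in ZS11 and at 12.3, 13.7 and 10.4 CPM in SX3. Its log2 fold change was 0.32 ± 0.11 (adjusted p = 0.00558, edgeR). That call was lost without SX3 replicate 2, where the log2 fold change was 0.23 (adjusted p = 0.0895).

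The A06 pair of AGL31 lies 4211 bases apart and did not move as a unit. The first copy was at 27.3, 27.7 and 27.6 CPM in ZS11 and 22.6, 21.0 and 19.8 CPM in SX3, a log2 fold change of -0.38 ± 0.07 (adjusted p = 7.69e-07, edgeR). The second copy was at 18.4 CPM in both lines, ± 0.985 in ZS11 and ± 0.894 in SX3. The interval of its log2 difference ran from -0.17 to 0.15 (adjusted p = 0.943).

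**Figure D2:**
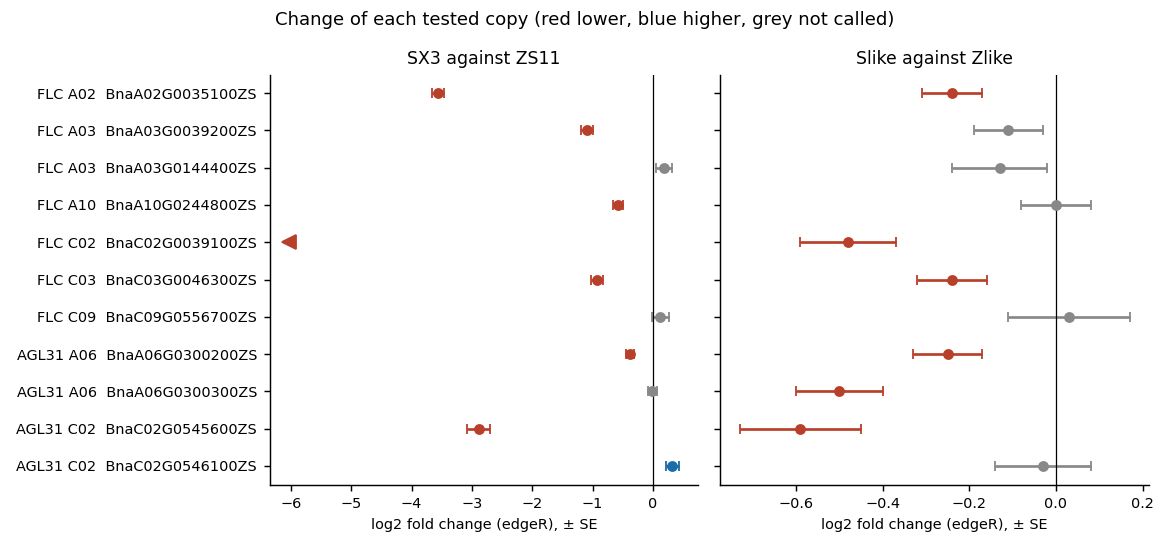
Log2 fold change of each tested copy with its SE (edgeR) for SX3 against ZS11 (left) and Slike against Zlike (right), on axes of different width. The left arrowhead for FLC on C02 marks the bound of 65.5-fold, and colours mark copies called lower (red), called higher (blue) or not called (grey). The falls in the left panel reach -3.56 and the bound, and those in the right panel reach -0.59.

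Taken as one pool, FLC transcripts were fewer in SX3 and were divided differently among the copies. The summed level of the 10 FLC genes was 120, 120 and 124 CPM in the ZS11 libraries and 52.1, 47.2 and 47.3 CPM in the SX3 libraries, a log2 ratio of means of -1.31. The A02 and C02 copies together went from 52.7 ± 1.1 to 3.36 ± 0.475 CPM (SD, n = 3), 15.7-fold lower. The other 8 genes together went from 68.5 ± 1.06 to 45.5 ± 2.39 CPM, 1.50-fold lower. The copies of the A chromosomes were 2.56-fold lower in sum and those of the C chromosomes 2.30-fold lower. These sums are descriptions and were not tested.

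Per kilobase, the A02 copy supplied 32.7% ± 0.695 of all FLC in ZS11 and 7.02% ± 0.67 in SX3 (SD, n = 3). The C02 copy supplied 11.2% ± 0.942 in ZS11 and 0 in SX3. The A10 copy rose in share from 17.3% ± 1.18 to 29.2% ± 2.25, although its own level was lower. The second A03 copy went from 5.02% ± 0.345 to 14.3% ± 1.98 and the C09 copy from 4.77% ± 0.859 to 13.1% ± 0.954. AGL31 in sum, over 6 genes, was at 64.4 ± 1.34 CPM in ZS11 and 53.7 ± 3.43 CPM in SX3.

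**Figure D3:**
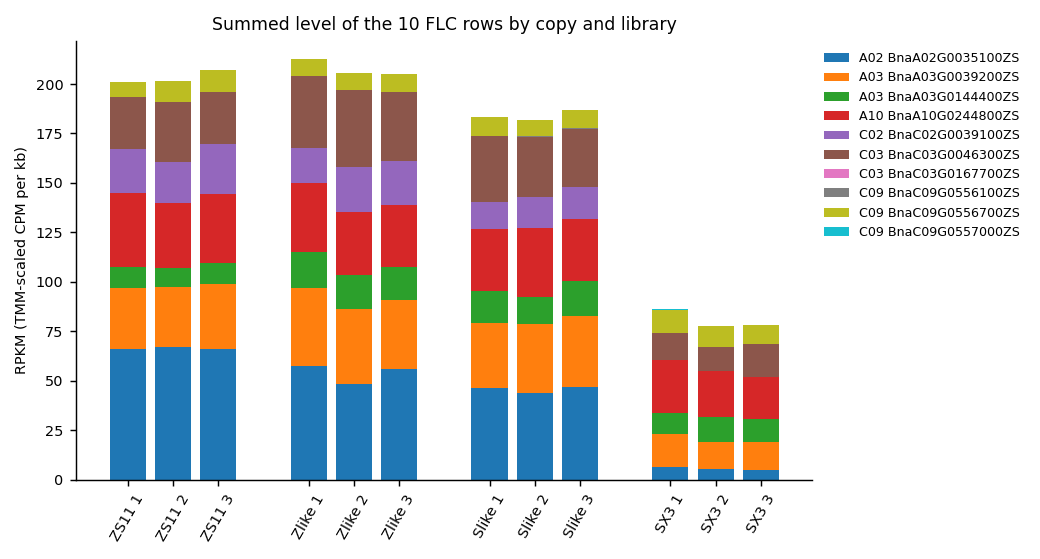
Summed level of the 10 FLC genes in each of the 12 libraries, in RPKM (TMM-scaled CPM per kilobase of coding length), stacked by copy. The A02 segment at the bottom is the largest in ZS11, Zlike and Slike and shrinks from 66.4 to 5.68 RPKM in SX3, where the C02 segment is missing.

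The second comparison asked whether the same copies differ between backcross plants of the mutant and the wild type. They were lower in Slike at 6 of the 11 tested copies and higher at none (edgeR, adjusted p under 0.05). Copies with an unadjusted p under 0.05 numbered 0 higher and 6 lower, and DESeq2 called 0 higher and 4 lower. Across all genes tested, 13.4% were called lower and 13.8% higher. The falls were small: the median log2 fold change was -0.24 over the 11 copies, and the furthest was -0.59. Summed FLC was at 127, 122 and 122 CPM in Zlike and 110, 109 and 111 CPM in Slike, a log2 ratio of -0.17.

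The largest falls were those of the first C02 and the second A06 copies of AGL31 and of FLC on C02. The first C02 copy of AGL31 was at 7.11, 7.58 and 8.67 CPM in Zlike and at 6.44, 4.90 and 4.25 CPM in Slike (log2 fold change -0.59 ± 0.14, adjusted p = 0.000615, edgeR). The second A06 copy was at 16.4, 15.0 and 17.4 CPM in Zlike and at 11.1, 12.1 and 11.3 CPM in Slike (-0.50 ± 0.10, adjusted p = 1.42e-05). FLC on C02 was at 10.4, 13.6 and 13.0 CPM in Zlike and at 7.98, 9.10 and 9.45 CPM in Slike (-0.48 ± 0.11, adjusted p = 0.000358). All of these groups were separate, and all 3 Slike libraries held counts for the C02 copy of FLC, which had 0 counts in SX3.

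FLC on A02 was at 34.0, 28.7 and 33.1 CPM in Zlike and at 27.4, 26.0 and 27.6 CPM in Slike. The groups stood close but did not overlap, and the log2 fold change was -0.24 ± 0.07 (adjusted p = 0.00417, edgeR). Without Zlike replicate 1 it was -0.19 and missed the threshold (adjusted p = 0.0589).

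FLC on C03 and the first A06 copy of AGL31 were called by edgeR on all 6 libraries but not under several alternatives. FLC on C03 was at 21.5 ± 1.14 CPM in Zlike and 18.2 ± 1.18 CPM in Slike (-0.24 ± 0.08, adjusted p = 0.0174, edgeR). The call was lost by DESeq2 (adjusted p = 0.113) and without Zlike replicate 2 (0.107), Slike replicate 2 (0.0621) or Slike replicate 3 (0.102). The first A06 copy was at 22.2 ± 1.81 and 18.6 ± 2.24 CPM with overlapping libraries (-0.25 ± 0.08, adjusted p = 0.0121, edgeR), and was lost by DESeq2 (adjusted p = 0.107) and without Zlike replicate 1 (0.119) or Slike replicate 2 (0.178).

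The remaining 5 copies overlapped between Zlike and Slike. FLC on A10 was at 19.4 CPM in both classes, ± 0.994 in Zlike and ± 1.2 in Slike, with a 95% interval of the log2 difference from -0.16 to 0.16 (adjusted p = 0.996, edgeR). The interval of the first A03 copy was -0.26 to 0.04 and that of the second A03 copy -0.36 to 0.09. FLC on C09 had an interval of -0.26 to 0.31 and the second C02 copy of AGL31 one of -0.24 to 0.19.

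The difference between the comparisons was tested copy by copy in a fit of all 12 libraries, as the change from Zlike to Slike minus that from ZS11 to SX3. It passed the test for 8 of the 11 copies, 6 with a higher and 2 with a lower value, where 30.1% of all 51650 genes tested were called higher and 23.2% lower. The fall was smaller in the backcross for FLC on A02, by 3.32 ± 0.13 on the log2 scale (adjusted p = 6.4e-50, edgeR). It was also smaller for the first C02 copy of AGL31 (2.31 ± 0.25, adjusted p = 6.07e-15), the first A03 copy (0.99 ± 0.12, adjusted p = 8.73e-12), the C03 copy (0.69 ± 0.13, adjusted p = 2.91e-06) and the A10 copy of FLC (0.58 ± 0.12, adjusted p = 1.14e-05). FLC on C02 passed too (adjusted p = 4.12e-38), but no size is given because its fitted change against a group at 0 has no fixed value.

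The second A06 copy of AGL31 went the other way. It had the same mean level in both parents and a lower level in Slike than in Zlike, a difference of -0.49 ± 0.13 (adjusted p = 0.000471, edgeR). The second C02 copy of AGL31 had a difference of -0.35 ± 0.15 at an adjusted p of 0.0488. That call was lost by DESeq2 (0.105), without the filter on low counts (0.0576), and without ZS11 replicate 2 (0.0929) or 3 (0.0785), SX3 replicate 1 (0.0767) or 2 (0.197), Zlike replicate 1 (0.115) or 2 (0.0987), or Slike replicate 3 (0.296).

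Each backcross class was also set against the parent it resembles. Zlike and ZS11 differed at 6 of 11 copies, 4 higher and 2 lower in Zlike (edgeR, adjusted p under 0.05), where 23.1% of all genes were called higher and 22.9% lower. The second A03 copy of FLC had the largest change, from 6.50, 5.69 and 6.43 CPM in ZS11 to 11.1, 10.6 and 10.1 CPM in Zlike (log2 fold change 0.77 ± 0.12, adjusted p = 3.12e-08). FLC on C03 was higher in Zlike by 0.42 ± 0.08 (adjusted p = 1.12e-05), the second C02 copy of AGL31 by 0.33 ± 0.11 (adjusted p = 0.00847) and the first A03 copy by 0.25 ± 0.08 (adjusted p = 0.00549). FLC on A02 (-0.30 ± 0.06, adjusted p = 2.74e-05) and the first A06 copy of AGL31 (-0.31 ± 0.07, adjusted p = 0.000193) were lower. Summed FLC was 121 ± 2.07 CPM in ZS11 and 124 ± 2.63 CPM in Zlike. The second A03 copy was therefore higher in both backcross classes than in either parent, without overlap.

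Slike and SX3, which share the mutant plant type in their labels, differed at 8 copies. Of these, 7 were higher and 1 lower in Slike, where 29.8% of all genes were called higher and 23.9% lower. FLC on A02 was higher by 3.02 ± 0.11 on the log2 scale, or 8.11-fold (adjusted p = 3.82e-53, edgeR), and FLC on C02 was at least 43.0-fold higher (adjusted p = 8.52e-42). The first C02 copy of AGL31 was higher by 2.13 ± 0.21 (adjusted p = 6.4e-17), the first A03 copy of FLC by 1.24 ± 0.09 (adjusted p = 7.89e-24) and the C03 copy by 1.11 ± 0.10 (adjusted p = 3.88e-19). The A10 copy (0.47 ± 0.09, adjusted p = 1.93e-06) and the second A03 copy (0.46 ± 0.12, adjusted p = 0.000775) were higher by less, and the second A06 copy of AGL31 was lower (-0.67 ± 0.09, adjusted p = 2.05e-10). Slike held summed FLC of 110 ± 1.47 CPM against 48.9 ± 2.80 CPM in SX3.

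Levels were also set against the mean ZS11 level of each copy. FLC on A02 was at 68.9% ± 2.19, FLC on C02 at 65.7% ± 5.71 and the first C02 copy of AGL31 at 59.1% ± 12.8 in Slike (SD, n = 3). In Zlike the same copies were at 81.4% ± 7.32, 91.7% ± 13.0 and 88.5% ± 9.10. The A06 copies of AGL31 were at similar levels in Slike, 67.7% ± 8.13 and 62.7% ± 2.82, although SX3 held them at 76.8% ± 4.99 and 100% ± 4.86, so this level was not particular to the copies that fell furthest in SX3. The first A03 and the C03 copies of FLC, which SX3 held at 46.8% ± 5.32 and 51.9% ± 8.46, were above the ZS11 mean in both backcross classes. These 4 comparisons share libraries with each other, so their values are not independent.

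The untested copies had between 0 and 59 counts over all 12 libraries. The AGL31 copy on C03 (BnaC03G0526000ZS, 39385494 to 39395574, minus strand) was the most abundant of them. It had 7, 12 and 17 counts in SX3, 0, 1 and 1 in ZS11, 3, 7 and 2 in Zlike and 3, 2 and 4 in Slike. SX3 stood above ZS11 without overlap, and with no filter on low counts the difference passed the test (adjusted p = 5.48e-07, edgeR). In the same unfiltered fits it was higher in Zlike than in ZS11 (adjusted p = 0.0388) and lower in Slike than in SX3 (adjusted p = 0.00531), and the difference between the changes passed too (adjusted p = 0.000579). An FLC copy on C09 (BnaC09G0557000ZS) had 4, 1 and 4 counts in SX3, 1 in a single ZS11 library and 0 in every backcross library. Without the filter SX3 against ZS11 gave an adjusted p of 0.0561 for it (edgeR). Slike against SX3, where it was lower in Slike, passed the test (adjusted p = 0.0222, edgeR). That call rests on 9 counts in SX3, and the difference between the changes did not pass for this copy.

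The other 6 copies were at the limit of detection in every group. The second FLC copy of C03 (BnaC03G0167700ZS) had 1 count in all, MAF5 on C03 (BnaC03G0526100ZS) had 4, AGL27 on A02 (BnaA02G0411200ZS) had 6 and another FLC copy on C09 (BnaC09G0556100ZS) had 11. The last AGL31 copy of C02 (BnaC02G0546200ZS) and AGL27 on C02 (BnaC02G0546300ZS) had 0. A count of 0 corresponds to a level of at most 0.174 to 0.222 CPM depending on the library. No AGL27 or MAF5 transcript was thus measurable at this depth, and nothing can be said of its change. AGL31 and AGL27 copies follow each other on C02, with 13241 bases between the second and the last AGL31 copy and a further 11768 bases to AGL27.

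The surroundings of the A02 and C02 copies of FLC were compared, using the 10 tested genes on each side. On C02 the neighbours fell with FLC. In SX3 against ZS11, 19 of 20 were called lower and 1 higher, and for 7 no SX3 library held a count. Their summed level was 825 ± 6.46 CPM in ZS11, 260 ± 4.41 in SX3, 680 ± 5.22 in Zlike and 554 ± 10.2 in Slike. UFC beside the C02 copy had 119, 103 and 80 counts in ZS11 and 1, 2 and 0 in SX3 (adjusted p = 1.07e-34, edgeR).

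On A02 the neighbours were mixed. Their summed level was 910 ± 13.5 CPM in ZS11, 723 ± 9.92 in SX3, 848 ± 3.63 in Zlike and 808 ± 6.37 in Slike. In SX3 this was 79.4% ± 1.09 of the ZS11 mean, against 31.5% ± 0.534 for the C02 neighbours. Both sums are weighted by their most abundant gene, a match to ACT7. On A02 it had 28149 counts in ZS11 and 15296 in SX3, and on C02 22198 and 7701. The lower A02 sum therefore does not describe the other neighbours. Gene by gene in SX3, 11 of the 20 were called higher and 5 lower. Their log2 fold changes ranged from -0.80 to 5.77 around a median of 0.50, so FLC at -3.56 lay below every one of them. UFC, 2141 bases from the A02 copy of FLC, was higher in SX3, at 7.06 ± 0.543 CPM against 2.42 ± 0.709 CPM in ZS11 (log2 fold change 1.54 ± 0.17, adjusted p = 8.22e-15, edgeR). DFC on the other side, 2143 bases away, was at 0.516 ± 0.277 CPM or less in every group and was not tested.

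In the backcross, on C02, 13 of 20 neighbours were called lower in Slike than in Zlike and 0 higher, with a median of -0.40 beside the -0.48 of FLC. On A02, 6 were called higher and 4 lower, and the median was 0.18 beside the -0.24 of FLC. There FLC was not below all its A02 neighbours: 3 of 20 lay lower, the lowest at -0.69. The contrast between A02 and C02 neighbours was not tested. UFC on A02 was at 7.38 ± 1.92 CPM in Zlike and 9.16 ± 1.44 CPM in Slike (log2 fold change 0.30 ± 0.13, adjusted p = 0.0754, edgeR).

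**Figure D4:**
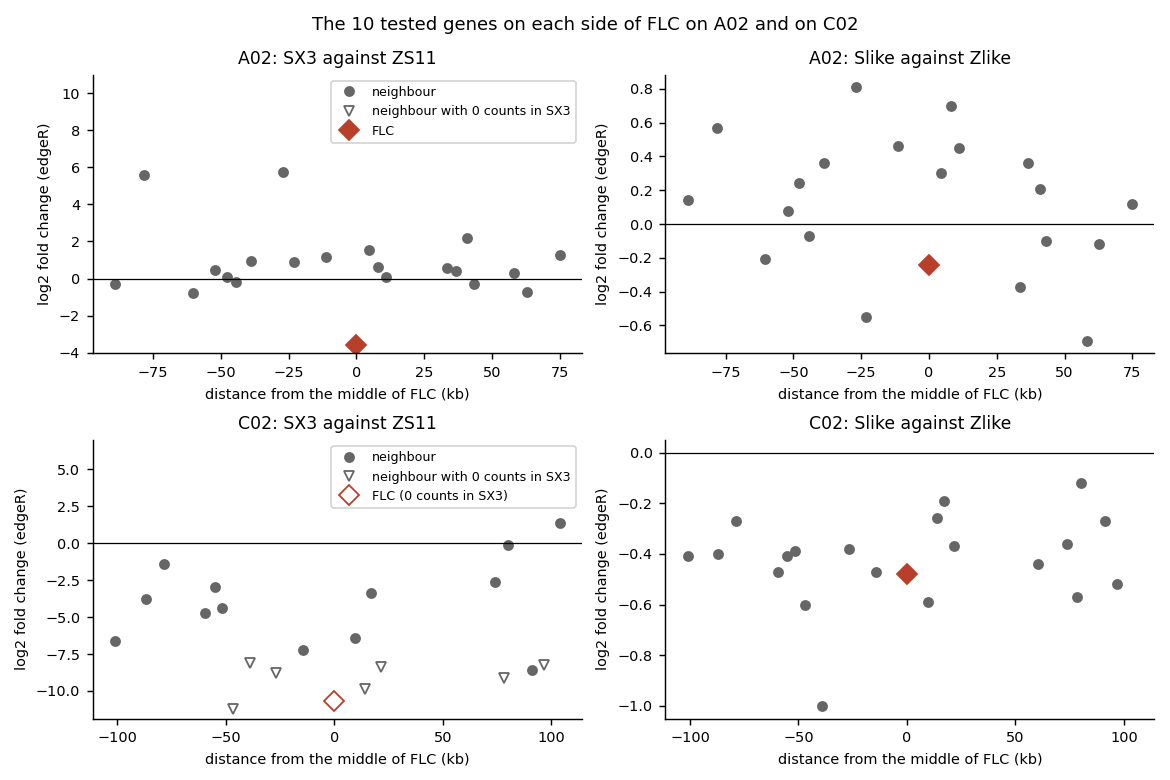
Log2 fold change (edgeR) of FLC (diamond) and of the 10 tested genes on each side (grey), against distance from the middle of FLC in kilobases, for A02 (top) and C02 (bottom), in SX3 against ZS11 (left) and Slike against Zlike (right). Open symbols have 0 counts in SX3, and their height depends on the model. On A02 FLC lies at -3.56 under neighbours between -0.80 and 5.77, and on C02 19 of 20 neighbours were called lower.

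The surroundings of the other copies that fell stand beside 33.4% of all genes called higher in SX3 and 35.9% called lower. Around the FLC copies they were alike. The 20 neighbours of the first A03 copy had a median of 0.15 in SX3, with 8 higher and 4 lower, and 2 of them lay lower than FLC at -1.10. Those of the C03 copy had a median of 0.13, with 8 higher and 3 lower, and 1 lay lower than FLC. Those of the A10 copy had a median of 0.17, with 9 higher and 4 lower. The first A06 copy of AGL31, at -0.38, had 19 neighbours with a median of 0.15, of which 7 were called higher and 4 lower. The first C02 copy of AGL31 stood among 19 genes with a median of -0.35, of which 9 were called lower and 4 higher. Of these 19, 3 lay lower than AGL31 at -2.89, the lowest at -8.01.

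Likeness to FLC on A02 was measured over the 12 libraries as the root mean square difference of centred log2(CPM + 0.5) values. Compared with this copy were 38167 genes with a gene symbol from their protein match and a mean of at least 1 CPM. The genes most like it matched an F-box protein, At5g07670, on C02 (distance 0.113), the pectinesterase PME51 on C02 (0.139), SUMO3 on C03 (0.139), ATG18B on A03 (0.14) and FAM179B on C02 (0.145). Of these 5, 3 lay in the first 9 Mb of C02, the stretch that holds the C02 copy of FLC, as did 1.27% of the genes compared; the bounds of this stretch were chosen with the values known. Among the members, the first C02 copy of AGL31 was nearest, at rank 830 (0.446), followed by FLC on C02 at rank 1637 (0.663), on A03 (first copy) at 2879 and on C03 at 3325. The A10 copy was at rank 6926 and the others further down. The libraries share their groups, so these distances mainly order patterns of 4 group means.

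Genes that act on FLC were listed from Arabidopsis knowledge by protein match. Their counts below stand against the shares over all genes tested, 33.4% higher and 35.9% lower in SX3 against ZS11 and 13.8% higher and 13.4% lower in Slike against Zlike, and against a median log2 fold change over all genes of -0.01 in SX3. Nothing particular to a list is read from them. In the FRIGIDA complex, which raises FLC in Arabidopsis, FRI was at 15.4 ± 1.12 CPM in ZS11, 16.1 ± 1.19 in SX3, 15.7 ± 0.412 in Zlike and 16.7 ± 1.12 in Slike over 4 copies. FRL1, over 3 copies, was at 26.1 to 30.5 CPM in ZS11 and 23.0 to 23.5 in SX3. It was at 23.7 to 27.3 CPM in Zlike and 20.8 to 23.4 in Slike. The whole complex moved little in sum, at 203 to 209 CPM in ZS11, 202 to 206 in SX3, 205 to 211 in Zlike and 201 to 213 in Slike. Of 21 copies of its 6 genes, 17 were tested and 3 were higher and 4 lower in SX3 (edgeR, adjusted p under 0.05), beside 33.4% and 35.9% of all genes. The largest changes by p were in SUF4, a zinc-finger protein of the complex, with the C05 copy higher (log2 fold change 0.48 ± 0.06) and the A08 copy lower (-0.77 ± 0.08). In Slike against Zlike 1 copy was lower, FRL1 on A06 (-0.28 ± 0.08, adjusted p = 0.00564), and 0 were higher, with 0 higher and 1 lower at an unadjusted p under 0.05 and 0 of either by DESeq2.

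Of 33 copies of 8 autonomous-pathway genes, which lower FLC, 31 were tested, and 10 were higher and 7 lower in SX3, beside 33.4% and 35.9% of all genes, with a median log2 fold change of 0.10. FLK, an RNA-binding protein of that pathway, was higher on C03, at 54.8 ± 1.87 CPM in SX3 and 25.1 ± 1.41 CPM in ZS11 (1.12 ± 0.06, adjusted p = 3.65e-40, edgeR). FY, an RNA 3' end processing factor, had 0 counts on C02 in SX3 and was at least 51.6-fold lower than its 10.6 ± 0.757 CPM in ZS11. In Slike, 6 copies were higher and 3 lower, beside 13.8% and 13.4% of all genes, led by FY on A02 (0.56 ± 0.08, adjusted p = 5.69e-09) and FY on C02 (-0.54 ± 0.13, adjusted p = 0.000459).

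The chromatin factors that keep FLC active had 51 tested copies of 63, of which 18 were higher and 13 lower in SX3, beside 33.4% and 35.9% of all genes. UBC1, a ubiquitin-conjugating enzyme that acts on histone H2B, was lower on A08, at 0.317 ± 0.107 CPM in SX3 and 45.6 ± 0.622 CPM in ZS11 (-7.13 ± 0.15, adjusted p = 6.21e-83, edgeR). VIP2 of the PAF1 complex was higher on A10 (0.89 ± 0.08, adjusted p = 3.8e-21). In Slike against Zlike 1 copy was higher, CDC73 on C05 (0.20 ± 0.07, adjusted p = 0.0312), and 6 were lower, led by the same UBC1 copy (-0.43 ± 0.07, adjusted p = 2.46e-07), beside 13.8% and 13.4% of all genes.

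Genes of vernalization and Polycomb silencing, which shut FLC down, had 48 tested copies of 78. Of these, 25 were higher and 14 lower in SX3, beside 33.4% and 35.9% of all genes, with a median of 0.26 beside -0.01 over all genes. VIN3, the cold-induced gene of this group, was at 0.604 ± 0.233 CPM in ZS11, 0.788 ± 0.0448 in SX3, 1.07 ± 0.217 in Zlike and 1.08 ± 0.352 in Slike, summed over 5 copies. VRN1, a DNA-binding protein that keeps FLC silent after cold, changed in opposite directions in its A01 and C01 copies: the A01 copy was higher in SX3 (1.2 ± 0.07, adjusted p = 4.39e-36) and the C01 copy lower (-4.32 ± 0.14, adjusted p = 9.82e-60, edgeR). Over all 7 copies VRN1 was at 129 ± 4.19 CPM in ZS11 and 132 ± 1.05 CPM in SX3. In Slike 9 copies were higher and 5 lower, beside 13.8% and 13.4% of all genes, led by MSI1 on A10 (0.77 ± 0.11, adjusted p = 1.59e-08) and VRN1 on C01 (-0.63 ± 0.08, adjusted p = 1.9e-10).

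Partners and targets of FLC had 31 tested copies of 48, with 11 higher and 11 lower in SX3, beside 33.4% and 35.9% of all genes. SVP, the MADS-box partner of FLC, was at 197 ± 2.99 CPM in ZS11 and 327 ± 4.27 CPM in SX3 over 4 copies, and its A04 copy rose by 2.30 ± 0.06 on the log2 scale (adjusted p = 3.01e-71, edgeR). Summed FT, the mobile flowering signal, was at 1.06 ± 0.291 CPM in ZS11, 1.33 ± 0.39 in Zlike, 3.08 ± 0.668 in Slike and 10.5 ± 0.821 in SX3. It was highest in SX3, where summed FLC was lowest, at 48.9 CPM. Summed FLC was at 121 CPM in ZS11, 124 in Zlike and 110 in Slike. A link between the levels of FT and FLC was not tested. SOC1, a floral integrator repressed by FLC, followed another order, with 155 ± 4.96 CPM in ZS11, 142 ± 4.31 in SX3, 53.2 ± 0.939 in Zlike and 53.0 ± 1.68 in Slike over 17 copies. SPL15 on C06 was lower in SX3 (-1.21 ± 0.19, adjusted p = 6.69e-09). In Slike against Zlike 3 copies were higher and 8 lower, beside 13.8% and 13.4% of all genes, led by FT on C06 (1.54 ± 0.29, adjusted p = 9.06e-06) and FD on A01 (-0.49 ± 0.07, adjusted p = 4.19e-10, edgeR). The floral organ and photosynthesis markers given above differ between the same groups.

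In the authors' deposited table for the parents, 5 of the 19 copies are listed: FLC on A02, on C02 and the first A03 copy, the first C02 copy of AGL31 and the AGL31 copy on C03. The authors' deposited table gives the first 4 the word Up and the last Down; all 8155 genes with the word Up had lower mean counts in SX3. The authors' deposited table for the backcross lists 0 of the 19. Of all 100919 genes, the list for the parents gives Up to 8155 and Down to 5301. The list for the backcross gives Up to 168 and Down to 1672. Nothing particular to the 19 copies is read from these counts. Both of these lists are labelled with cutoffs on FPKM, fold change and adjusted p, whereas the calls here used adjusted p alone. A copy missing from them may therefore still be called here.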

How the data were processed

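RNA of 12 apical meristem libraries in 4 groups of 3 was analysed, grouped by sample title. The authors deposited a whole-number read count per gene and library, per the file headers, and FPKM values. FPKM recomputed from the deposited count, length and library total differed by at most 5.1e-15 in relative terms, so the deposited FPKM was not tested. Per the submitters' processing notes, HISAT2, fastp and featureCounts were used. Genome build, tool versions and settings, strand use and the treatment of multiply matching reads are not given. Near-identical copies may have exchanged reads, so every value for 1 copy is uncertain to that extent, as it is for overlapping and antisense genes. Gene IDs end in ZS; loss of SX3 reads that differ from the genome used was not tested. The labels do not say whether libraries came from separate plants. The p-values set a difference between groups only against the spread of libraries within them, and that spread may be technical. Within groups, chi-square per gene was 1.35 to 1.47, more than counting noise gives.

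Counts were filtered with filterByExpr, scaled by TMM and tested two-sided by the quasi-likelihood test of edgeR 4.0.16 (R 4.3.3) with Benjamini-Hochberg adjustment over every gene that passed the filter. Calls needed an adjusted p under 0.05. The parents and the backcross classes were each fitted on their own libraries, and the other comparisons on all 12. Levels are TMM-scaled CPM; RPKM is that value per kilobase of deposited length. Standard errors come from the fold change and its test statistic. A group at 0 was given a floor of 3 counts per library, which covers counting error only. The code was run on simulated data in which few genes changed, so error rates between lines as different as these were not tested. Alternatives were upper-quartile and RLE scaling, no filter, a replicate block, DESeq2 1.42.0, another set of libraries in the fit, and each library left out.

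The members, lists and tests were chosen with earlier results of these data known. Named from each list were the higher and the lower called copy with the smallest p. Summed levels of single genes (FRI, FRL1, VIN3, VRN1, SVP, FT, SOC1) were added after their values were seen. Symbols shared with an unrelated protein were removed by protein name. Same-numbered libraries did not deviate together (r of -0.0138 to 0.0132), so the numbers do not pair them. No reference sequence was used here.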

Additional observations from a re-analysis of the deposited data

Results flagged for a closer look

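For 8 copies, the change from Zlike to Slike differed from the change from ZS11 to SX3 in the test of that difference (edgeR, all 12 libraries). On the log2 scale the difference was 3.32 for FLC on A02 (-3.56 in the parents, -0.24 in the backcross), 0.99 for the first A03 copy of FLC (-1.10 and -0.11), 0.69 for FLC on C03 (-0.93 and -0.24) and 0.58 for FLC on A10. It was 2.31 for the first C02 copy of AGL31 (-2.89 and -0.59). For FLC on C02 the fitted value was 10.16, which depends on the model because SX3 had 0 counts, and is no bound. For the second A06 copy of AGL31 it was -0.49 (-0.01 and -0.50) and for the second C02 copy -0.35 (0.32 and -0.03). The backcross classes and the parents also differ in the tissue markers given in the report, and the part of those in these differences was not tested.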

How the results depend on the processing

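Counts of called copies stayed within 1.5 times the main count in all 5 comparisons under every alternative run. Leaving out 1 library gave 7 to 9 calls in SX3 against ZS11 and in the difference, 4 to 6 in Slike against Zlike, 6 to 8 in Zlike against ZS11 and 8 to 10 in Slike against SX3. With the replicate number as a block, the calls were 8, 6, 8, 6 and 9 in the order SX3 against ZS11, Slike against Zlike, the difference, Zlike against ZS11 and Slike against SX3; the libraries share only a number, and the pairing check is given with the methods. Of 715 values of single copies under an alternative, 672 kept their direction and their side of the threshold, 18 fell short of it, 7 newly passed it and 18 changed sign. The sign changes were all of copies that were not called. The second A06 copy of AGL31 in SX3 against ZS11 gave 0.05 with upper-quartile scaling, 0.00 with the block and -0.04 to 0.03 with 1 library left out. FLC on A10 in Slike against Zlike gave 0.00 with RLE scaling, the block and DESeq2, and -0.05 to 0.04 with 1 library left out. With 1 library left out, FLC on C09 ranged from -0.04 to 0.21 in SX3 against ZS11, -0.02 to 0.08 in Slike against Zlike and -0.18 to 0.07 in the difference. The second C02 copy of AGL31 ranged from -0.13 to 0.12 in Slike against Zlike and from -0.12 to 0.13 in Slike against SX3. The first A06 copy of AGL31 newly passed in Slike against SX3 with upper-quartile scaling (adjusted p = 0.0223), RLE scaling (0.0302), the block (0.0494) and the 2 groups alone (0.044). The second A06 copy newly passed in Zlike against ZS11 without Zlike replicate 3 (0.0417). The cause was not tested. Depth limits the 8 untested copies, and no change in AGL27 or MAF5 could be measured.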
